A study of Mus musculus with 28 samples.

Results

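The comparison set fibroblasts that had been converted with Foxa2 and Hnf4a into induced hepatocyte-like (iHep) cells against hepatocytes from adult liver. It was defined by library titles and used 6 of the 28 libraries of the series, namely 4 of iHep_Foxa2 and 2 of adult hepatocytes (Hep). Another 2 libraries of the starting cells, mouse embryonic fibroblasts (MEF), gave the level before conversion. All animals were C57BL/6. MEF were prepared from embryos 13.5 days after conception, with no virus named in their labels. The iHep_Foxa2 cells were MEF given retroviruses, built on the pGCDNsam backbone, that carried Foxa2 and Hnf4alpha, the latter being the gene Hnf4a here. Hep came from livers of mice aged 10 weeks, digested in a pair of collagenase steps, also with no virus named. The labels do not give the time from infection to harvest of the iHep_Foxa2 cells. No library of fibroblasts given an empty virus was analysed here, so the effect of infection cannot be told apart from that of the factors. Nothing in the labels says whether the 4 iHep_Foxa2 libraries came from separate conversions or the 2 Hep libraries from separate animals. The p-values therefore measure only a spread between libraries, which may be technical. That spread was estimated within groups over all 28 libraries of the series, most of them outside this comparison.

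Hepatocytes secrete most plasma proteins and lipoproteins, make bile acids, detoxify drugs, run the urea cycle and release glucose into the blood. HNF4A, a nuclear receptor, and the FOXA proteins, forkhead factors that can bind their sites in closed chromatin, sit at the top of the transcription factor network that sets up these programmes together with CEBPA and FXR (Nr1h4). In direct conversion, such factors are forced into another cell type and the endogenous hepatocyte genes are then read out.

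Assigned reads ranged from 25354288 to 30983889 in the iHep_Foxa2 libraries, and were 15658619 and 14592820 in Hep and 22178268 and 22039143 in MEF. Levels are CPM, the reads of a gene scaled to library size, on library sizes corrected by TMM, a method that assumes most genes do not differ. The TMM factors of the Hep libraries were 0.522 and 0.550 against at most 1.09 in iHep_Foxa2, so every level given as a percent of Hep is about 2-fold higher when plain library totals are used. Correlations of log levels across genes between replicates were 0.962 to 0.972 in iHep_Foxa2, 0.989 in Hep and 0.983 in MEF. Markers of Kupffer cells and other leukocytes summed to 445 and 573 CPM in the Hep libraries, 0.321 to 2.26 CPM in iHep_Foxa2 and 31.5 to 358 CPM in MEF. Endothelial markers summed to 270 to 290 CPM in Hep and 15.2 to 33.6 CPM in iHep_Foxa2. In these bulk libraries fewer cells of a type and less RNA per cell cannot be told apart.

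The iHep_Foxa2 libraries came near the Hep level for a minor part of the hepatocyte genes. Of 16499 genes tested with edgeR's quasi-likelihood test, 10000 differed between iHep_Foxa2 and Hep at a Benjamini-Hochberg adjusted p under 0.05, a background of 60.6%. A total of 5804 were higher in iHep_Foxa2 (35.2%) and 4196 lower (25.4%). These shares are the background for each list count against Hep below, and 15.3% higher and 15.5% lower for those against MEF. Genes higher in iHep_Foxa2 made up 58% of the calls, 51.2% with DESeq2 size factors and 79.6% with library totals. The median log2 fold change over all genes tested was 0.42, and the scaling moved it to 0.17 with DESeq2 size factors and to 1.39 with library totals. A hepatocyte gene set was built from Hep and MEF levels, of genes called higher in Hep than in MEF, at least 4-fold higher and at 5 CPM or more in Hep. Calls between these groups had a background of 56.9% (24.3% higher and 32.6% lower in Hep), and the set held 2024 genes. Their median level in iHep_Foxa2 was 8.29% of that in Hep. A gene was termed reached at 50% of Hep or more, and missing when it was called lower and stood under 1% of Hep. By these limits 189 genes (9.34%) were reached, 576 (28.5%) were missing and 1259 (62.2%) lay between. Gbp7 at 50.11% and Slc8b1 at 49.81% lay on either side of the upper limit, and Hacl1 at 1.001% and 9130409I23Rik at 0.9757% on either side of the lower one. These are descriptions, since the limits use the same levels.

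**Figure D1:**
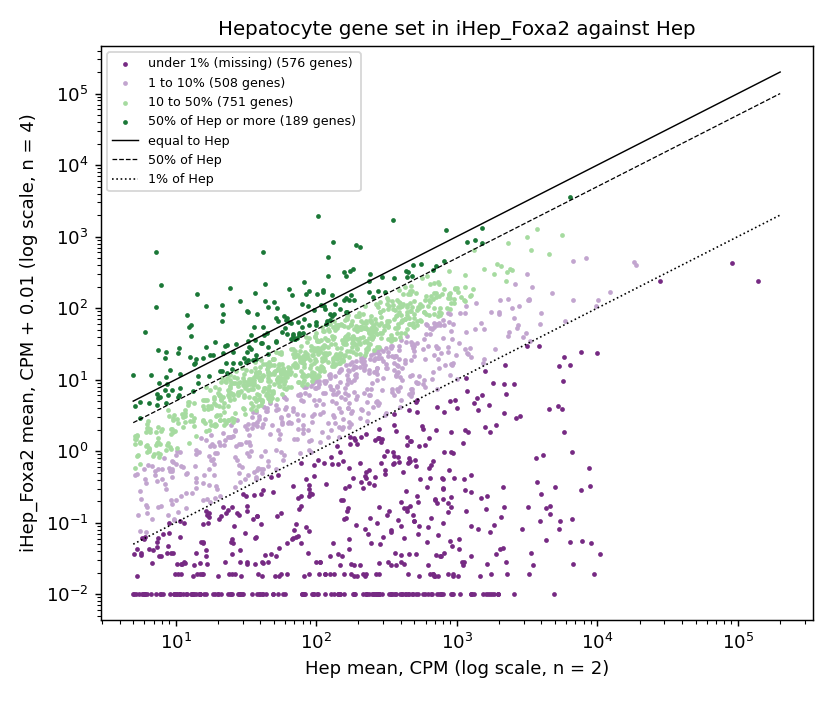
Mean level of each of the 2024 hepatocyte genes in iHep_Foxa2 (vertical axis, CPM + 0.01, log scale, n = 4) against Hep (horizontal axis, CPM, log scale, n = 2), with lines at equal level, 50% and 1% of Hep. Most of the genes with the highest Hep level lie below the 1% line, and the row of points at the bottom holds genes without a read in iHep_Foxa2.

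The shortfall was largest among the genes that take most reads in hepatocytes. The set drew 64.1% and 64.4% of all reads in the Hep libraries, 9.65%, 9.61%, 7.41% and 6.96% in iHep_Foxa2 replicates 1 to 4, and 3.12% and 3.41% in MEF. Among the 100 set genes with the most reads in Hep, a ranking that is not corrected for transcript length, 1 was reached, 58 were missing and 41 lay between. When the set was cut into 4 bins of 506 genes by Hep level, the top bin, from 375 CPM upwards, had a median of 1.52% of Hep with 231 missing and 15 reached. The bin below had a median of 8.95% with 126 missing, and the next a median of 14.6% with 85 missing. The lowest bin, from 5 CPM upwards, had a median of 10.4% with 134 missing and 75 reached. Missing genes had nearly no expression in fibroblasts, with a median of 0.0714 CPM in MEF, 0.042 CPM in iHep_Foxa2 and 235 CPM in Hep. Reached genes had a median of 3.98 CPM in MEF, against 59.9 CPM in iHep_Foxa2 and 45.7 CPM in Hep. The median excess of Hep over MEF was 9.0-fold for reached, 12.1-fold for intermediate and 1610-fold for missing genes. A gene left at its MEF level can be missing only if MEF is under 1% of Hep. These medians therefore follow in part from the limits, and do not show that fibroblast expression goes with being reached. Of the missing genes, 149 had no count in the 4 iHep_Foxa2 libraries and 339 had a mean at or below that of MEF. Against MEF, 33 missing genes were called higher and 75 lower, where the background was 15.3% higher and 15.5% lower. Intermediate genes were called higher than in MEF 389 times and lower 70 times.

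Of the introduced pair, Foxa2 exceeded its level in Hep and Hnf4a stayed below it in every iHep_Foxa2 library. Foxa2 stood at 3281, 2364, 988 and 1248 CPM in replicates 1 to 4 against 114 and 93.4 CPM in Hep and 0.144 and 0.0476 CPM in MEF. All 4 libraries thus lay above Hep, with a log2 fold change of 4.25 ± 1.10 (SE, edgeR adjusted p = 0.00203). Hnf4a stood at 258, 316, 151 and 33.3 CPM against 1071 and 942 CPM in Hep, and no more than 0.190 CPM in MEF. Its mean was 18.8% of Hep with no overlap between the groups (log2 fold change -2.41 ± 0.60, edgeR adjusted p = 0.00149). Replicate 4 had the lowest Hnf4a level. Viral and endogenous transcripts of these genes could not be told apart in counts per gene, and Foxa2 itself is 1 of the 189 reached genes. The relatives that were not introduced stayed low: Foxa1 was at 0.0365, 0.129, 0.535 and 1.43 CPM against 40.03 and 35.74 CPM in Hep, and Foxa3 at 0 to 0.219 CPM against 190 and 124 CPM.

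Other factors of the hepatic network were mostly under 10% of Hep. Of 23 hepatic transcription factors tested, 21 were lower than in Hep (background 25.4%) and none was higher. Of the 21 in the hepatocyte set, 9 were missing, 9 lay between 1 and 10% of Hep, 2 between 10 and 50%, and 1 was reached. That 1 was Gata6, a zinc finger factor of endoderm, at 30.9, 35.7, 35.8 and 33.0 CPM against 20.8 and 17.2 CPM in Hep and 2.30 and 6.42 CPM in MEF. It was higher than in MEF (log2 fold change 2.96 ± 0.47, edgeR adjusted p = 5.55e-05) and was not called against Hep (adjusted p = 0.0862), although library totals and limma on FPKM did call it higher. Its relative Gata4 stood at 17.7, 14.5, 4.85 and 8.89 CPM against 24.1 and 24.7 CPM in Hep, a mean of 47.1% that was not called (adjusted p = 0.154). Cebpa, a factor of mature hepatocytes, was even across the 4 libraries at 141, 148, 136 and 102 CPM, which was 6.44% of Hep. Nr1h4, the bile acid receptor, was at 0.0966 to 1.29 CPM against 159 and 186 CPM. Nr0b2, its target and a repressor of bile acid synthesis, had no count in iHep_Foxa2 and was at least 968-fold lower than in Hep, a call lost with the DESeq2 Wald test. Nr5a2 was at 0 to 0.179 CPM against 69.1 and 69.6 CPM. Atf5, which has a role in stress responses, was at 118 to 145 CPM against 1917 and 2304 CPM in Hep and 1299 and 1401 CPM in MEF, so it was lower than in both.

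A few plasma protein genes had sizeable levels in CPM, and a majority was missing by percent of Hep. Of 28 plasma protein genes, all in the hepatocyte set, 27 were lower than in Hep and none higher. The median log2 fold change was -10.68 against 0.42 over all genes, and 20 were missing. Against MEF 12 were higher and 4 lower. Cp, which codes for the ferroxidase ceruloplasmin, was the only reached member, at 854, 1029, 359 and 987 CPM against 1424 and 1616 CPM in Hep and 1.53 and 3.38 CPM in MEF. Every iHep_Foxa2 library lay below both Hep libraries, yet the difference was not called (adjusted p = 0.151) except in 1 alternative fit, and its mean went from 53.1% of Hep to 104% with library totals. Itih2, a protein that is linked to hyaluronan, was at 786, 1010, 274 and 496 CPM or 18.9% of Hep (log2 fold change -2.40 ± 0.44, adjusted p = 6.01e-05). Kng1, the precursor of bradykinin, was at 638, 350, 242 and 144 CPM or 13.8% of Hep, a call that was lost with library totals and with limma. The fetuin gene Ahsg was at 1010, 536, 71.6 and 130 CPM against 18090 and 18660 CPM in Hep, or 2.38%, and 1.34% without replicate 1. Trf, which codes for transferrin, was at 138, 424, 117 and 292 CPM, or 0.865% of Hep, so it counted as missing at this level. All of these except Cp were lower than in Hep, and the 5 were higher than in MEF.

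Albumin was far below Hep in each library and depended on 1 of them. Alb stood at 914, 18.6, 14.6 and 3.04 CPM in replicates 1 to 4 against 149000 and 131100 CPM in Hep and 7.81 and 8.52 CPM in MEF. Only replicate 1 lay well above the fibroblasts, and replicate 4 lay below them. The mean was 0.170% of Hep, and 0.00861% without replicate 1. Alb was lower than in Hep (log2 fold change -9.20 ± 1.77, edgeR adjusted p = 0.000118) and was not called against MEF (adjusted p = 0.0623), though it was called higher without any one of replicates 2, 3 and 4. Serpina1b, a member of the multi-copy alpha-1-antitrypsin family whose copies the counting could split, was also highest in replicate 1, with 386 CPM against 32.3, 14.6 and 92.5 CPM in the others. Gc, which codes for the vitamin D-binding protein, had 5 counts in all 4 libraries, with a highest level of 0.143 CPM against 8560 and 7136 CPM in Hep. Itih1, next of kin to Itih2, had no count and was at least 77700-fold lower than in Hep.

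**Figure D2:**
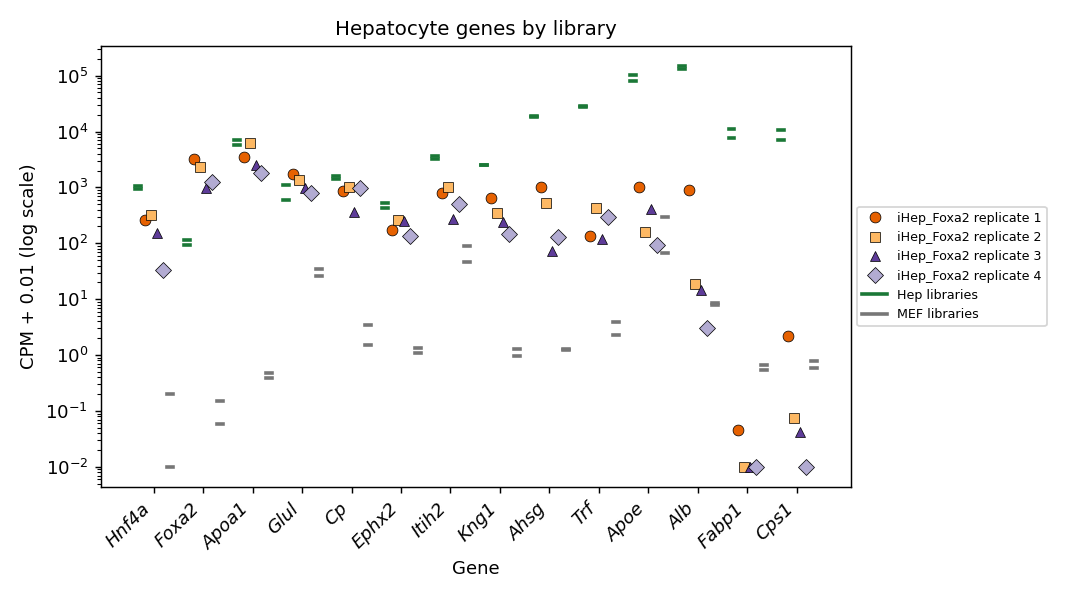
Level of 14 hepatocyte genes in each library (vertical axis, CPM + 0.01, log scale) with iHep_Foxa2 replicates as symbols, Hep libraries as green bars and MEF libraries as grey bars. Apoa1, Glul and Cp lie near the Hep bars, while Fabp1 and Cps1 lie at or below the MEF bars in 3 or 4 of the 4 libraries.

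Coagulation and complement genes followed the same pattern. Of 31 tested, 30 were lower than in Hep, 9 were higher than in MEF, and 21 of the 30 in the hepatocyte set were missing. The 3 chains of fibrinogen were unequal. Fgb was at 119, 126, 14.5 and 162 CPM against 9322 and 10360 CPM in Hep, or 1.07%. Fga was at 3.07, 0.0644, 0.0945 and 0.571 CPM, or 0.0143% of Hep (0.00367% without replicate 1), and Fgg at 11.9, 1.22, 0.441 and 2.04 CPM, or 0.0866% (0.0274% without replicate 1). Replicate 1 gave most of the reads of Fga and Fgg, and both were not called against MEF while Fgb was (adjusted p = 8.01e-05). Of the complement genes, Cfb was at 178, 658, 320 and 129 CPM or 14.1% of Hep (9.17% without replicate 2) and C3 at 376, 528, 253 and 441 CPM or 2.10%. Both were higher than in MEF, the call for C3 being lost without MEF replicate 1. Masp1, which starts the lectin pathway, was the 1 member not called against Hep (adjusted p = 0.0939), though 6 alternative fits called it lower, among them DESeq2 size factors, the replicate block, and those without iHep_Foxa2 replicate 3 or either MEF library. It was also expressed in MEF at 71.6 and 19.2 CPM.

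Among lipoprotein genes a single apolipoprotein stood near the hepatocyte level. Of 21 tested, 20 were lower than in Hep and 15 of the 19 in the set were missing. Apoa1, which gives high-density lipoprotein its main protein, was at 3535, 6319, 2570 and 1827 CPM against 7052 and 5775 CPM in Hep and 0.383 and 0.476 CPM in MEF. Replicate 2 lay between the Hep libraries and the other 3 below them. Its mean was 55.6% of Hep (108% with library totals, 41.2% without replicate 2), the difference from Hep was not called (adjusted p = 0.252), and the rise over MEF was (log2 fold change 13 ± 1.23, edgeR adjusted p = 1.32e-07). It was the 1 reached gene among the 100 with the most reads in Hep. Its partner Apoa2 was at 0.110 to 0.472 CPM against 7641 and 9996 CPM in Hep and was not called against MEF except lower in 2 alternative fits. Apob, the backbone of very low-density lipoprotein, was at 15.4, 50.5, 11.6 and 5.96 CPM against 5172 and 6434 CPM, or 0.359%, and 0.189% without replicate 2. Apoe was at 1035, 161, 415 and 93.4 CPM against 103200 and 79290 CPM in Hep, within or above the MEF values of 66.1 and 292 CPM. Fabp1, the liver fatty acid carrier, had 1 count in the 4 libraries against 11200 and 7604 CPM in Hep.

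The bile acid genes held no reached member. All 19 tested were lower than in Hep, with a median log2 fold change of -12.20, and 13 of the 18 in the set were missing. Cyp7a1, the rate-limiting enzyme of the classical pathway, had 3 counts in all against 461 and 454 CPM in Hep. Abcb11, the bile salt export pump, was at 0.0730 to 0.409 CPM against 2219 and 2080 CPM, and the uptake carrier Slc10a1 at 0.0357 to 0.157 CPM against 679 and 643 CPM. Cyp27a1, which starts the alternative pathway, was at 48.8, 23.9, 30.8 and 15.1 CPM or 4.14% of Hep, and was higher than in MEF (log2 fold change 4.69 ± 0.75, adjusted p = 6.44e-05).

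Promoter sequence was set beside these classes as a property that the classes had not used. RefSeq windows of mouse build GRCm38.p6, reaching from 250 bases before to 50 bases after a start, were searched on both strands for the letters of 3 motifs. At least 1 window was matched for 139 of the 189 reached, 972 of the 1259 intermediate and 439 of the 576 missing genes. CAAAGTCCA, a site of HNF4, was in 0.56%, 0.64% and 3.95% of their 179, 1254 and 532 windows. It was in 0.51% of the windows of all genes tested and 0.47% of all windows. TGTTTAC, a FOXA site, was in 2.79%, 3.67% and 6.77% against 2.69% and 3.65%, and TGANTCA, an AP-1 site, in 5.03%, 6.86% and 9.40% against 5.81% and 7.81%. Genes with several starts enter with several windows, and families of similar copies with several genes, so the windows are not independent. A match describes the letters of the window, not binding. The following lines show the 250 bases before the start, in the direction of the gene, with motif matches in capitals. Apoa2 and Cyp3a11 are missing genes that were picked for their matches after these were seen. Apoa1 is the reached apolipoprotein, whose window holds none of the 3 motifs in these exact letters. Variant letters of the same sites were not searched, so a window without a match may still hold such sites. The windows are chr1:171224804-171225053 on the plus strand for Apoa2, chr5:145879855-145880104 on the minus strand for Cyp3a11 and chr9:46228380-46228629 on the plus strand for Apoa1.
Apoa2: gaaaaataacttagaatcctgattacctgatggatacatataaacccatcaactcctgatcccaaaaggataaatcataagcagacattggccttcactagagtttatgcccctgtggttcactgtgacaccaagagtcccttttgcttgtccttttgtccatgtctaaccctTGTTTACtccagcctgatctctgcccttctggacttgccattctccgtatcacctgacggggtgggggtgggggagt
Cyp3a11: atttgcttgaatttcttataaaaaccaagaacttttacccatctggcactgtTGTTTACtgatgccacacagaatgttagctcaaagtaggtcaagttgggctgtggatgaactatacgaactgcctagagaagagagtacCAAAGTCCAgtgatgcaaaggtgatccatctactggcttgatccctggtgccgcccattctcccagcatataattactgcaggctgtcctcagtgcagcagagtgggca
Apoa1: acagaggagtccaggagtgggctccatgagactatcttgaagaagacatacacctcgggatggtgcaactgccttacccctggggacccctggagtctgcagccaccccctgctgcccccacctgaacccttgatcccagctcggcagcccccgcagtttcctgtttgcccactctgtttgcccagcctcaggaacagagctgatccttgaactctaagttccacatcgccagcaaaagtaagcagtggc
The FOXA site begins 77 bases before the start in Apoa2, whose other window in the table holds none of the motifs. In Cyp3a11 the HNF4 site begins 109 and the FOXA site 198 bases before the start, without overlap.

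Enzyme genes were missing in most pathways. Fatty acid oxidation had the highest median share of Hep among the hepatocyte lists, a share near that of the whole hepatocyte set. Of 30 genes for xenobiotic enzymes, 28 were lower than in Hep and 18 of the 29 in the set were missing. The cytochromes gave almost no reads: Cyp2e1 was at 1.03 to 2.61 CPM against 5280 and 6242 CPM in Hep, and Cyp3a11 had 3 counts. Cyp2c29 had no count and was at least 78100-fold lower than in Hep, with the reservation that both of these belong to families of similar copies. Gstp1, a glutathione transferase, was reached at 295, 110, 148 and 127 CPM against 247 and 376 CPM, which was 54.7% of Hep, 108% with library totals, and 41.3% without replicate 1. It was not called (adjusted p = 0.0515), but was called lower in 9 alternative fits, among them DESeq2 size factors, the replicate block, and those without iHep_Foxa2 replicate 1, Hep replicate 1 or either MEF library. The epoxide hydrolase Ephx1 was at 387, 328, 429 and 350 CPM against 247 and 357 CPM in Hep and 201 and 115 CPM in MEF, with no call against Hep except higher with library totals and with limma. Ephx2 was at 176, 267, 251 and 133 CPM, 43.7% of Hep and far above the 1.10 and 1.33 CPM of MEF. Its call against Hep (log2 fold change -1.19 ± 0.34, adjusted p = 0.00464) was lost with library totals, with limma and without Hep replicate 2.

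Of 36 genes of amino acid metabolism and the urea cycle, all in the set, 35 were lower than in Hep and 28 were missing. Glul, which makes glutamine and in liver marks the cells around the central vein, was the 1 reached member, at 1766, 1358, 968 and 786 CPM against 602 and 1087 CPM in Hep and 25.5 and 35.1 CPM in MEF. The iHep_Foxa2 and Hep libraries overlapped and the difference was not called (adjusted p = 0.429), though library totals and limma called Glul higher. Gldc, of the glycine cleavage system, fell into low and high libraries at 54.9, 59.0, 276 and 242 CPM against 442 and 457 CPM in Hep. Its call against Hep (adjusted p = 0.0285) was lost with library totals, with limma, with the 3 groups alone, and without any of iHep_Foxa2 replicates 1 and 2 or either Hep library, while its rise over the 0.527 and 0.428 CPM of MEF was called (adjusted p = 1.68e-06). The urea cycle gene Cps1 was at 2.15, 0.0644, 0.0315 and 0 CPM against 10450 and 7061 CPM in Hep. Ass1, which uses citrulline in that cycle, was at 15.8 to 44.8 CPM against 8310 and 7044 CPM in Hep and 322 and 163 CPM in MEF, lower than in both. Tat, for tyrosine breakdown, was at 5.73, 5.77, 7.65 and 97.3 CPM, so replicate 4 alone brought its mean to 0.921% of Hep, from 0.202% without it. Hpd, which follows it in that pathway, had no count and was at least 193000-fold lower than in Hep.

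All 14 genes of glucose and fructose metabolism were lower than in Hep and 9 were missing. Pck1 and G6pc, the first and last committed enzymes of glucose release, had 5 and 3 counts in the 4 libraries against 9918 and 8210 CPM and 839 and 799 CPM in Hep. The glucose carrier Slc2a2 had no count, at least 13500-fold below Hep. Khk, which phosphorylates fructose, was at 18.7, 12.1, 33.4 and 23.7 CPM or 2.22% of Hep. All 17 genes of fatty acid oxidation and ketone body synthesis were lower than in Hep too. Their median was 8.23% of Hep, near the 8.29% of the whole hepatocyte set, with 8 between 10 and 50% and 3 missing. Against MEF 10 were higher, and the list summed to 1076 to 1701 CPM in iHep_Foxa2 against 717 and 768 CPM in MEF. Acsl1, which activates long-chain fatty acids, was at 258, 372, 310 and 221 CPM against 1162 and 1133 CPM in Hep and 20.1 and 15.0 CPM in MEF. Acadl, an acyl-CoA dehydrogenase, was at 173, 178, 154 and 115 CPM or 37.6% of Hep, a call lost with library totals and with limma. Of 16 genes for hepatic hormones, their receptors and iron handling, 15 were lower than in Hep and 11 of the 15 in the set were missing. Insr, the insulin receptor, was at 139, 100, 105 and 95.2 CPM or 40.6% of Hep, a call lost with library totals and with limma, and the growth factor Igf1 at 0.214 to 1.10 CPM against 984 and 791 CPM.

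Over the 10 hepatocyte lists together, 226 of 235 genes tested were lower than in Hep and none was higher, with a median log2 fold change of -8.75. Of the 227 in the hepatocyte set, 147 were missing, 53 lay between 1 and 10%, 22 between 10 and 50%, and 5 were reached. The 5 were Gata6, Cp, Apoa1, Gstp1 and Glul. The number reached was 2 with DESeq2 size factors, with the DESeq2 Wald test, without MEF replicate 1 or without Hep replicate 1. It was 3 with no filter on low counts, without iHep_Foxa2 replicate 2 or without MEF replicate 2, and 7 with library totals. Against MEF, 69 of the 235 were higher and 26 lower.

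**Figure D3:**
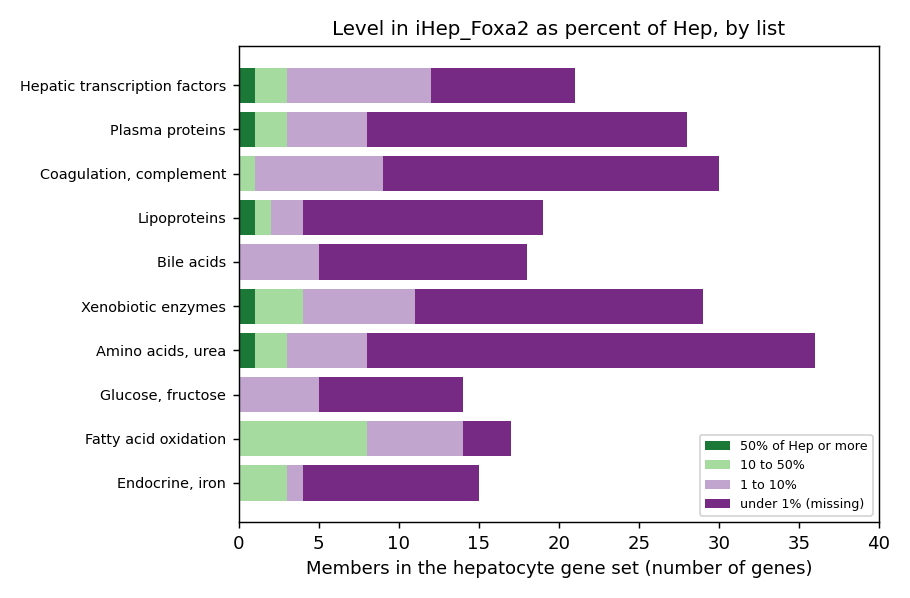
Number of genes of each hepatocyte list that belong to the hepatocyte set (horizontal axis), divided by level in iHep_Foxa2 as a percent of Hep. The bar for fatty acid oxidation has 3 missing genes of 17, while that for amino acids and urea has 28 of 36.

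Most reached genes lay outside these lists. By the definitions used, a reached gene stands at least 2-fold over MEF, and 178 of the 189 were called higher than MEF. Against Hep 17 were called lower and 33 higher. Those with the most reads in Hep, after Apoa1, included Cp and Glul as given, the ferritin chain Fth1, the chaperone Clu and the kinase Pim3. Fth1 was at 1889, 707, 1287 and 1372 CPM against 1508 and 1503 CPM in Hep. Clu was at 822, 2108, 150 and 329 CPM against 1074 and 1299 CPM, and its mean of 71.8% of Hep became 36.6% without replicate 2. Pim3 was at 582, 367, 364 and 316 CPM against 758 and 226 CPM, so all 4 libraries lay between the 2 of Hep. These 3 were not called against Hep, except Clu, lower without replicate 2, and their means were above Hep with library totals. Some reached genes exceeded Hep: Gclc, which limits glutathione synthesis, was at 2874, 1794, 972 and 1161 CPM against 335 and 372 CPM (log2 fold change 2.26 ± 0.62, edgeR adjusted p = 0.00325). Fkbp5, a co-chaperone of the glucocorticoid receptor and a known target of it, was at 645, 1204, 852 and 630 CPM against 156 and 107 CPM in Hep and 26.8 and 27.8 CPM in MEF (log2 fold change over Hep 2.66 ± 0.35, adjusted p = 8.44e-07). Which genes counted as reached depended on the scaling: 73 of the 189 were reached under all 3 count scalings and 51 when limma on FPKM was included, and 97 in each fit that left out 1 of the 8 libraries of iHep_Foxa2, Hep and MEF. For missing genes these counts were 478, 430 and 525 of 576.

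Libraries differed in how much they held. Counted singly, replicates 1 to 4 had 199, 216, 157 and 145 set genes at 50% of Hep or more and 592, 617, 663 and 622 under 1%. Replicate 1 was the highest of the 4 in 183 of the 576 missing genes, among them Alb, Fga, Fgg and Cps1, and 149 had no count in any. Replicate 2 was the highest in 87 of the 189 reached genes.

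Genes of sterol and fatty acid synthesis were low against both references. Of 25 tested, 24 were lower than in Hep and 22 lower than in MEF, and none was higher than either. Hmgcs1, the first committed step towards sterols, was at 110, 216, 168 and 176 CPM against 4193 and 4377 CPM in Hep and 746 and 1513 CPM in MEF. Insig1, which holds the sterol sensor in the endoplasmic reticulum, was at 82.6, 69.8, 33.9 and 51.5 CPM against 3808 and 3969 CPM in Hep and 480 and 1096 CPM in MEF. Srebf2, which codes for the factor that drives these genes, was at 97.9 to 125 CPM, 126% of Hep and not called (adjusted p = 0.168), though called higher with library totals and limma, and it was lower than in MEF (log2 fold change -1.16 ± 0.20, adjusted p = 0.000117).

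Enzyme forms known from tissues other than liver were present. Of 16 genes for enzymes in forms known from other tissues, 11 were higher than in Hep, 3 lower, and 10 met the rule for genes retained from MEF given below. The pyruvate kinase gene Pkm was at 2330, 3403, 2744 and 2726 CPM against 26.3 and 23.4 CPM in Hep and 3012 and 2007 CPM in MEF. Hexokinase 2 (Hk2) was at 118 to 133 CPM against 0.735 and 1.25 CPM in Hep, and the brain form of glycogen phosphorylase (Pygb) at 237 to 437 CPM against 6.49 and 5.23 CPM. These 3 were higher than in Hep (log2 fold changes of Pkm, Hk2 and Pygb 6.82, 6.97 and 5.91).

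Genes were grouped as ectopic when they were called higher than both references, at least 4-fold over each, at 5 CPM or more and without overlap of libraries, with no upper limit on the level in Hep or MEF. There were 409 of them, a background of 2.48% of the genes tested. Their median level was 42.6 CPM, 148 were under 1 CPM in both Hep and MEF and 35 had no count in either. The rule admits hepatocyte genes that overshoot, and 20 of the 409 were reached genes, including Foxa2, Gclc, Fkbp5 and Cdh1. Ectopic genes varied between libraries more than reached ones as a description: the highest and lowest library were a median of 3.28-fold apart, against 2.41-fold in reached genes. They were over 10-fold apart in 76 of the 409 ectopic and 22 of the 189 reached genes. Replicate 2 was the highest library in 184 of the 409. The group kept 366 members under the 3 count scalings, 277 when limma on FPKM was included, and 214 in each fit without 1 library. It fell to 269 genes without MEF replicate 2.

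Genes of epithelial cells were gained broadly. Of 26 tested, 22 were higher than in MEF (background 15.3%), 11 higher than in Hep (background 35.2%) and 2 lower (background 25.4%). The reached members numbered 7 and the ectopic ones 8 (background of ectopic genes 2.48%). Cdh1, the adhesion protein of epithelia, was at 428, 967, 682 and 340 CPM against 46.4 and 36.7 CPM in Hep and 0.192 and 0.190 CPM in MEF (log2 fold change over Hep 3.86 ± 0.58, edgeR adjusted p = 6.52e-06). The simple keratins that hepatocytes also make were near Hep on average but uneven. Krt8 was at 88.5, 744, 320 and 125 CPM against 519 and 385 CPM in Hep, and Krt18 at 211, 543, 380 and 64.4 CPM against 288 and 194 CPM. Neither was called against Hep. The junction protein gene Cgn was at 258, 408, 288 and 179 CPM against 118 and 124 CPM in Hep, above it in every library but not called (adjusted p = 0.0769), though library totals, limma and 3 further fits called it higher. Lsr, a receptor at tricellular contacts, was at 168, 274, 172 and 117 CPM or 22.6% of Hep.

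Epithelial genes that the Hep libraries held at low levels or at 0 appeared beside them. Of 13 markers of bile duct and progenitor cells tested, of 14 listed, 9 were higher than in Hep (background 35.2%), 3 were lower (25.4%) and 4 were ectopic (2.48%). Krt19, a bile duct keratin, was at 372, 1980, 874 and 392 CPM against 1.10 and 0.125 CPM in Hep and 42.6 and 9.18 CPM in MEF (log2 fold change over Hep 10.51 ± 1.30, adjusted p = 4.33e-07). Krt7 was at 166, 980, 153 and 148 CPM against 0.367 and 0 CPM in Hep, with its call over MEF lost without MEF replicate 2. Epcam was at 9.93, 124, 8.03 and 28.9 CPM and the claudin Cldn4 at 12.01, 448, 5.92 and 38.4 CPM, each at most 0.245 CPM in the references. Grhl2, a factor of epithelial identity, was at 7.08, 94.0, 1.51 and 8.86 CPM with no count in Hep or MEF, at least 150-fold over Hep and 389-fold over MEF. Without replicate 2 these bounds were 31.4-fold and 81.2-fold, and the call over MEF was lost with the 3 groups alone. Replicate 2 was the highest library for Krt19, Krt7, Epcam, Cldn4 and Grhl2. Sox9, a factor of bile ducts and progenitors, was at 42.0, 139, 24.2 and 46.0 CPM against 6.37 and 6.35 CPM in Hep and 18.1 and 21.6 CPM in MEF.

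Some markers of intestine, stomach and stratified epithelium were ectopic too, at levels that changed from library to library, while no lung marker met the ectopic rule. The lists of pancreas, kidney and neural markers held no ectopic gene either, with 4 of 13, 3 of 11 and 6 of 9 members tested. Of 26 intestinal genes listed, 20 passed the filter on low counts and were tested. A marker absent from Hep and MEF passes that filter only through reads in other groups. The shares in these marker lists are therefore of members selected for expression, and cannot show an excess over the backgrounds. Of the 20 intestinal genes, 8 were higher than in Hep and 5 lower, shares near the backgrounds of 35.2% and 25.4%, and 5 were ectopic. Cdx2, the master factor of intestinal epithelium, was at 10.99, 28.4, 80.4 and 11.4 CPM with no count in Hep or MEF, at least 177-fold over Hep and 458-fold over MEF, or 91.2-fold and 236-fold without replicate 3. The 250 bases before its start, at chr5:147307250-147307499 on the minus strand of GRCm38.p6, hold a FOXA site that begins 40 bases before the start and is shown in capitals.
Cdx2: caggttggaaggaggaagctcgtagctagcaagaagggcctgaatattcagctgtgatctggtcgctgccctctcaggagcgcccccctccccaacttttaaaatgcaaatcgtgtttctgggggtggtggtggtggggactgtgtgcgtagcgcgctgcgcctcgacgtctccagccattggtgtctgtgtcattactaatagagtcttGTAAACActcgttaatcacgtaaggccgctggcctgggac
Over all ectopic genes, matched for 277 of 409, the FOXA site was in 3.86% of windows, against 2.69% for all genes tested and 3.65% of all windows. The AP-1 site was in 9.64% against 5.81% and 7.81%. Vil1, of the brush border, was at 133, 46.6, 26.6 and 14.7 CPM. Fabp2, the intestinal fatty acid carrier that Hep also held at 85.6 and 93.5 CPM, was at 0.146 to 0.409 CPM. Tff3, a trefoil peptide of goblet cells, was at 134, 270, 6.49 and 26.9 CPM.

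Of 18 stomach genes listed, 13 passed the filter on low counts and were tested. Of these 13, 8 were higher than in Hep (background 35.2%), none was lower (25.4%) and 5 were ectopic (2.48%). The filter limits these shares as it does for the intestinal genes. The summed level of the list was 656, 1023, 717 and 227 CPM in replicates 1 to 4 against 1.71 and 3.49 CPM in Hep and 7.33 and 7.42 CPM in MEF. Gkn2, of surface mucous cells, was at 291, 301, 530 and 81.6 CPM, Tff1, their trefoil peptide, at 186, 311, 7.97 and 106 CPM, and Psca, a surface antigen, at 127, 332, 149 and 22.4 CPM. In the references none of the 3 exceeded 2.24 CPM. Pgc, a pepsinogen, was steady at 5.67 to 13.8 CPM with no count in Hep or MEF. Lung markers were uneven: the summed level of the 7 genes tested, of 10 listed, was 226, 68.8, 1.92 and 86.3 CPM against 4.78 and 5.23 CPM in Hep. Nkx2-1, a factor of lung and thyroid, was at 68.6, 11.4, 0.787 and 55.6 CPM and the surfactant gene Sftpa1 at 98.6, 9.18, 0.0315 and 8.61 CPM. Neither was called against Hep (adjusted p = 0.126 and 0.0577) except higher with library totals and with limma, and for Sftpa1 also with the replicate block and without iHep_Foxa2 replicate 3, and their calls over MEF were lost without either MEF library. Of 11 genes of stratified and urinary epithelium tested, of 12 listed, 7 were higher than in Hep (background 35.2%) and 3 ectopic (2.48%). Krt6a, a keratin of stressed epidermis, was at 13.5, 51.2, 311 and 21.4 CPM with no count in Hep or MEF. Upk1b, a plaque protein of the bladder lining, was at 107, 69.7, 52.7 and 97.7 CPM with no count in Hep, at least 442-fold higher, and at 2.97 and 2.62 CPM in MEF.

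**Figure D4:**
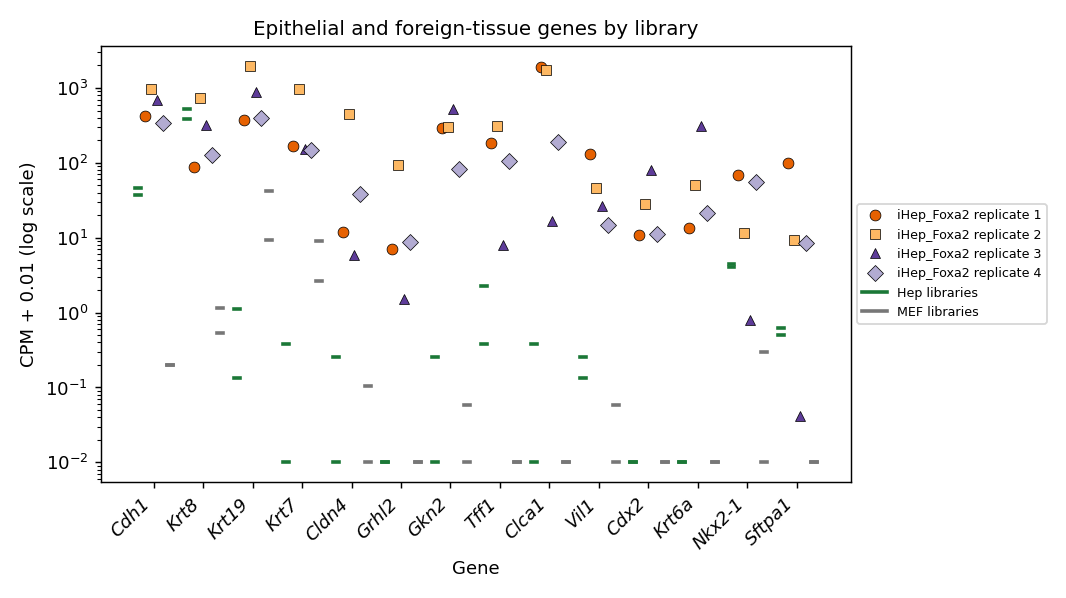
Level of 14 epithelial and foreign-tissue genes in each library (vertical axis, CPM + 0.01, log scale) with iHep_Foxa2 replicates as symbols, Hep libraries as green bars and MEF libraries as grey bars. Krt19 and Gkn2 are above every reference library in all 4 replicates, while replicate 3 is the lowest for Grhl2, Tff1, Clca1, Nkx2-1 and Sftpa1 and the highest for Cdx2 and Krt6a.

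The ectopic genes with the highest levels were of mixed kinds. The highest mean was that of Gsto1, a glutathione transferase of the omega class, at 2125, 4292, 1809 and 1534 CPM against 271 and 334 CPM in Hep and 330 and 447 CPM in MEF. Anxa8, an annexin, was at 804, 1028, 2063 and 988 CPM against 0.367 and 0.125 CPM in Hep and 196 and 55.3 CPM in MEF. Clca1, a protein secreted by goblet cells, was at 1892, 1760, 16.5 and 190 CPM against at most 0.367 CPM in Hep and no count in MEF. Mdm2, Btg2 and Trp53inp1, each known as a target of p53, were among the 12 highest. Mdm2 was at 973, 737, 841 and 971 CPM against 58.9 and 50.6 CPM in Hep and 241 and 123 CPM in MEF, Btg2 at 995 to 1429 CPM against 241 and 69.4 CPM in Hep, and Trp53inp1 at 898 to 1430 CPM against 265 and 230 CPM. These 3 were called higher than in both references (adjusted p against Hep 1.18e-06, 0.000658 and 3.41e-06). Of the 10 genes on the list of cell cycle inhibitors and p53 targets, which holds Mdm2, 6 were higher than in Hep and none lower, but 1 was higher and 4 lower than in MEF, and Mdm2 was the 1 ectopic member. Scara5, a ferritin receptor, was at 282, 273, 275 and 402 CPM with no count in Hep, at least 1660-fold higher, and at 6.99 and 13.4 CPM in MEF, the call over MEF being lost without MEF replicate 1. Spink1, a trypsin inhibitor of pancreas and regenerating liver, was at 405, 105, 206 and 91.7 CPM against 0.612 and 0 CPM in Hep.

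Fibroblast expression was kept in part. A gene was termed retained when it was called at least 4-fold higher than in Hep, stood at 5 CPM or more in MEF and at 50% of MEF or more in iHep_Foxa2, and was not ectopic. The rule took 1391 genes, a background of 8.43%, and took 2793 with library totals. Of these 54 were called lower and 195 higher than in MEF. The rule sets no limit on MEF against Hep, so it also takes genes that rose over both references without being ectopic. A stricter fibroblast set held 2407 genes, called higher in MEF than in Hep, at least 4-fold higher and at 5 CPM or more in MEF. Of that set 1388 stood at 50% of MEF or more and 76 under 1%, with a median of 61.1%. The matrix genes that define fibroblasts were mostly not retained: of 31 tested, 20 were higher than in Hep, 24 were lower than in MEF and 2 were retained. Col1a1, the main collagen chain, was at 152, 93.5, 300 and 259 CPM against 10.8 and 7.97 CPM in Hep and 25470 and 20380 CPM in MEF (log2 fold change from MEF -6.83 ± 0.84, edgeR adjusted p = 2.83e-06). Vim was at 360, 272, 963 and 552 CPM against 12.8 and 5.48 CPM in Hep and 4680 and 2444 CPM in MEF. Col6a1 and Timp3 were the retained pair. Col6a1 was at 383, 606, 1879 and 998 CPM against 5.51 and 2.62 CPM in Hep. Timp3, an inhibitor of matrix proteases, was at 3271, 4712, 2546 and 3452 CPM against 29.1 and 16.9 CPM in Hep and 1773 and 1655 CPM in MEF.

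Mesenchymal transcription factors were kept in part as well. Of 20 tested, 14 were higher than in Hep, 9 were lower than in MEF and 6 were retained. Tbx15 was at 152, 233, 172 and 188 CPM against 0 and 0.2491 CPM in Hep and 288 and 269 CPM in MEF, and Runx1 at 147, 126, 110 and 73.2 CPM against 0.490 and 0.747 CPM in Hep and 38.1 and 46.2 CPM in MEF. Prrx1 was lower than in MEF at 78.4, 21.4, 126 and 249.4 CPM against 609 and 506 CPM, a call lost with the 3 groups alone, without either MEF library or without iHep_Foxa2 replicates 1 or 2. Of 26 cell division genes, 24 were higher than in Hep and 23 were retained. Mki67 was at 69.1, 208, 125 and 211 CPM against 6.49 and 2.99 CPM in Hep and 111 and 107 CPM in MEF. The cell cycle inhibitor Cdkn1a was as high as in MEF by its mean, at 344, 314, 442 and 304 CPM against 3.18 and 7.47 CPM in Hep.

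Of 9 fetal liver and oncofetal genes tested, 8 were higher than in Hep, and the exception was the fetal serum protein. Igf2 was at 211, 1158, 591 and 2354 CPM against 2.33 and 0.623 CPM in Hep and 5253 and 3806 CPM in MEF. The RNA-binding protein gene Igf2bp2 was even at 109, 87.6, 108 and 112 CPM against 0.735 and 0.623 CPM in Hep and 102 and 85.4 CPM in MEF. Afp, the alpha-fetoprotein of fetal hepatocytes, was at 6.79, 0.258, 0.504 and 0.679 CPM against 2.33 and 0.374 CPM in Hep and was not called (adjusted p = 0.761).

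Leukocyte and Kupffer cell markers, of cells that a liver digest can hold, were at or near 0 in iHep_Foxa2, while endothelial and stellate cell markers were not. The 2 markers of red blood cells and their precursors that were tested were also lower than in Hep. They summed to 0.679 to 1.79 CPM in iHep_Foxa2 against 24.0 and 38.8 CPM in Hep. All 18 leukocyte and Kupffer cell markers tested were lower than in Hep. Of 16 endothelial markers 13 were lower and 3 not called, and of 7 stellate cell markers 2 were lower, 1 higher and 4 not called, with a sum of 21.1 to 46.6 CPM in iHep_Foxa2 against 40.4 and 73.6 CPM in Hep. Clec4f, a Kupffer cell lectin, and Cd5l, a macrophage product, had no count in iHep_Foxa2 and were at 60.6 and 46.3 CPM and at 120 and 83.1 CPM in Hep. C1qc, also without a count, was at 10.8 and 152 CPM in MEF. The hepatocyte set holds 7 of these markers, all missing, and 6 endothelial markers, of which 3 were missing. Of 14 interferon response genes 2 were higher than in Hep and 1 lower, shares below the backgrounds of 35.2% and 25.4%. Against MEF 5 were higher and none lower (background 15.3% and 15.5%). The hepatocyte set holds 4 of the 14, all counted as reached. The summed level of the 14 was 214, 961, 312 and 1787 CPM in replicates 1 to 4. Ifit3 was at 28.2, 127, 45.9 and 458 CPM against 52.6 and 81.8 CPM in Hep. Immediate early and stress genes summed to 8780, 9423, 9319 and 5044 CPM against 4156 and 7766 CPM in Hep. Of 18 tested, 9 were higher (background 35.2%) and 1 lower (25.4%). The part of these differences between libraries in the hepatocyte and ectopic results was not tested.

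The established cells made with the other family members, 6 libraries of iHep_Foxa1 and 6 of iHep_Foxa3 that shared the Hnf4a virus, gave a further reference. Both comparisons use the same 4 iHep_Foxa2 libraries that set the classes. Against iHep_Foxa1 1811 genes were called (11%), 639 higher and 1172 lower, and against iHep_Foxa3 5139 (31.1%), 2643 higher and 2496 lower. The libraries differed in Rn7sk, a small nuclear RNA without a poly(A) tail, which was at 0 to 2.16 CPM in iHep_Foxa2, at 0.258 to 1.05 CPM in iHep_Foxa1 replicates 1 to 3 and 47.2 to 67.9 CPM in replicates 4 to 6, and at 0.959 CPM in iHep_Foxa3 replicate 1 and 37.2 to 72.5 CPM in replicates 2 to 6. With the libraries of low Rn7sk alone, 4 genes were called against iHep_Foxa1 (0.0244%, of which 0.0061% higher and 0.0183% lower), and 279 against iHep_Foxa3 (1.7%, of which 0.671% higher and 1.03% lower), for which a single library was left. That library is assumed to vary like the other groups, so the low-Rn7sk calls against iHep_Foxa3 here and below compare with 1 library, not with the condition. The 4 were Foxa2, higher, and Foxa1, Enpp3 and Golm1, lower, the last 2 being named here after their values were seen.

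The classes were read in the same comparisons. Of the 189 reached genes, 20 were higher and 21 lower than in iHep_Foxa1 (background 3.87% and 7.1%), and 1 and 0 with the libraries of low Rn7sk. That 1 was Foxa2, an introduced gene. Against iHep_Foxa3 49 were higher and 25 lower (background 16% and 15.1%), and 6 and 3 with low Rn7sk. Of the 576 missing genes, 58 were lower and 6 higher than in iHep_Foxa1, and none was called with low Rn7sk. Against iHep_Foxa3 61 were lower and 25 higher, and 15 and 0 with low Rn7sk. Of the 409 ectopic genes, 42 were higher and 31 lower than in iHep_Foxa1, and 1 and 0 with low Rn7sk, the 1 being Foxa2 again. Against iHep_Foxa3 80 were higher and 54 lower, and 10 and 2 with low Rn7sk. Apoa1 was at 11980 ± 9886 CPM (SD, n = 6) in iHep_Foxa1 and 16100 ± 4344 CPM (SD, n = 6) in iHep_Foxa3 against 3563 ± 1966 CPM (SD, n = 4) in iHep_Foxa2, and was called lower than in both by edgeR (adjusted p = 0.0356 and 0.00507). With low Rn7sk it was called in neither (adjusted p = 0.913 and 0.266). Spink1 was at 3647 ± 3228 CPM (SD, n = 6) in iHep_Foxa1 and 4058 ± 1787 CPM (SD, n = 6) in iHep_Foxa3 against 202 ± 145 CPM (SD, n = 4) in iHep_Foxa2, with edgeR adjusted p = 0.00914 and 0.00159 over all libraries and 0.378 and 0.131 with low Rn7sk.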

How the data were processed

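RNA sequencing libraries made with a stranded mRNA kit, per the labels' protocols, were compared for iHep_Foxa2, Hep and MEF. The submitters' processing notes name BWA 0.7.12 and the build mm9, while no quantifier or annotation release is given in the sources used here. Per the file headers, the authors deposited for each of 30710 transcripts an expected count, an FPKM and a fraction of reads. Expected counts were summed to 23712 gene rows through RefSeq and GENCODE names (339 transcripts stayed unnamed, at most 3.21% of the reads of a library), rounded, and fitted with edgeR 4.0.16 in R 4.3.3: filterByExpr, TMM, robust quasi-likelihood, 28 libraries, a coefficient for each group, 19 residual degrees of freedom, 2-sided F tests and Benjamini-Hochberg adjustment over 16499 genes, called under 0.05. The fit was also run on simulated data with few changed genes, as many rising as falling. These lacked a difference in composition like that behind the TMM factors of Hep, so they cannot test the scaling. The deposited FPKM were used for limma 3.58.1 on log2(FPKM + 1), at 1 or more in 2 libraries, and the deposited fraction to check depth. Other alternatives were DESeq2 1.42.0 and those named with the results. A fold against a group without counts is a lower bound against 3 counts over the group, which is 0.0254 CPM in iHep_Foxa2, 0.185 CPM in Hep and 0.0716 CPM in MEF. Reads carry no molecular identifiers, so the bounds cover counting error only. Whether counting used strand is not given, so overlapping genes are uncertain. The members, gene lists and class limits were chosen with earlier results of these data known. Named genes were the introduced factors, members of the gene lists, and the largest or highest genes of each class by fixed ranks. Promoters are RefSeq windows of GRCm38.p6, used for sequence only. Some genes of the lists are counted but not reported singly here.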

Additional observations from a re-analysis of the deposited data

Results flagged for a closer look

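Of 173 genes and summed lists checked in the 4 iHep_Foxa2 libraries, on log2(CPM + 1), 16 had 1 library set apart from the other 3, by a share of the whole range past Dixon's 95% limit for 4 samples. Chance marks about 1 in 20 such groups. Replicate 1 was the high library for Cps1 (gap share 0.946, 2.15 CPM), Afp (0.842, 6.79 CPM), Fabp1 (1.0, from a single count) and the summed hormone and iron genes (0.982, 299.7 CPM), and the low library for Abcb11 (0.862, 0.0730 CPM). Replicate 2 was the high library for Krt7 (0.941, 980.0 CPM) and Ldha (0.886, 1029 CPM) and the low one for Igf2bp2 (0.859, 87.6 CPM). Replicate 3 was the low library for Fgb (0.87, 14.5 CPM) and Cyp7a1 (0.884, no count) and the high one for the summed genes of stratified and urinary epithelium (0.923, 386 CPM). Replicate 4 was the high library for Tat (0.906, 97.3 CPM), Bhmt (1.0, 0.107 CPM, 3 counts) and Scara5 (0.917, 402 CPM), and the low one for the summed intestinal genes (0.831, 95.5 CPM) and the summed stress genes (0.887, 5044 CPM). Fabp1, Cyp7a1, Bhmt and Abcb11 lie at or near the counting floor.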

How the results depend on the processing

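Calls against Hep ranged from 8095 to 9893 without 1 library, against 10000 with all. Calls against MEF ranged from 2905 (without MEF replicate 2) to 5041, and were 3177 without MEF replicate 1, against 5068. Against iHep_Foxa1 they were 3105 with the DESeq2 Wald test, 4 with low Rn7sk and 301 to 1837 without 1 library, against 1811, with 1083, 1294, 543 and 301 when iHep_Foxa2 replicates 1 to 4 were left out. Against iHep_Foxa3 they were 279 with low Rn7sk and 3771 to 5079 without 1 library, against 5139. Reached genes numbered 460 at a limit of 25% of Hep, 88 with a set at 10-fold over MEF, 170 with library totals (86 shared with the 189), 127 with limma and 169 to 202 without 1 library. Missing genes numbered 1084 at a limit of 10%, 433 with limma and 562 to 594 without 1 library. Ectopic genes numbered 704 at 2-fold, 241 at 10-fold and 269 (without MEF replicate 2) to 426 without 1 library. Retained genes numbered 2793 with library totals, 2077 with limma and 1291 to 1439 without 1 library. The cause of these shifts was not tested. Deviations of iHep_Foxa2 and Hep libraries from their group means correlated at -0.02 to 0.02. With 2 Hep libraries, whose deviations mirror each other, this says little about pairing by replicate number. Pairing between the iHep groups was not tested. With the replicate block there were 10135 calls against Hep, 228 against iHep_Foxa1, 3588 against iHep_Foxa3, 192 reached, 576 missing, 405 ectopic and 1398 retained genes. For genes followed singly, leaving out 1 library weakened 63 calls, added 15 and left 2162 on the same side. The other alternatives weakened 46, added 50 and left 2130, and none was reversed.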
